A study of Homo sapiens with 11 samples.

Results

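NF-kB is a family of dimeric transcription factors that switch on inflammatory, survival and adhesion genes. This report describes 10 genes of that pathway in colorectal cancer cells treated with phenylacetaldehyde (PAA), an aromatic aldehyde. They comprise 4 of the subunit genes (NFKB1, NFKB2, RELA and RELB), 3 genes whose products restrain the pathway or promote survival (NFKBIA, TNFAIP3 and BIRC3), 2 chemokine genes (CXCL8 and CXCL1) and the adhesion gene ICAM1. The 10 were found by symbol among the 60612 genes of the deposited table, and each matched 1 identifier.

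HCT-116 and RKO are established human colorectal cancer cell lines. The 11 libraries form 4 groups: HCT-116 in 0.1% dimethyl sulfoxide (DMSO, the vehicle; n = 3), HCT-116 in PAA for 24 h (n = 3), RKO in 0.1% DMSO (n = 2, the replicates numbered 2 and 3) and RKO in PAA for 24 h (n = 3). The dose of PAA is not given in the sources used here, nor is the time in vehicle. Nothing in the labels says that replicates were separate cultures, and the p-values therefore rest on a spread between libraries that may be technical.

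In resting cells NF-kB dimers are held in the cytoplasm by IkB proteins. Receptors for cytokines and for bacterial products act through adaptors and the IkB kinase (IKK) complex, which marks IkB for destruction and frees the dimers to enter the nucleus. A slower branch of the pathway processes the NFKB2 precursor and works mainly through dimers that contain RELB. Several targets of NF-kB, among them NFKBIA and TNFAIP3, encode inhibitors of the pathway, and in the intestinal epithelium the pathway is known for chemokine secretion and for protection from cell death.

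Expression was measured as FPKM, fragment numbers scaled by library depth and by transcript length, so that levels of different genes can be set side by side. The number of genes at 1 FPKM or more ranged from 11634 to 12133 over the libraries, and a rough estimate of depth ranged from 13900000 to 23300000 fragments. Transcripts of the mitochondrial genome took 38.2% to 40.2% of total FPKM in HCT-116 with DMSO and 31.2% to 31.4% with PAA. Their share in RKO was 33.8% to 34.9% with DMSO and 18.2% to 18.5% with PAA. Of 8 epithelial and intestinal markers, 6 reached an FPKM of 1 in HCT-116 and 4 in RKO, where CDH1 and KRT19 stayed below 1 and VIL1 was near 0 in both lines. Of 13 markers of other cell types, PTPRC and CD3E, which define leukocytes and T cells, were listed at 0 in all 11 libraries. Summed over the 13 markers, FPKM was 4.8 to 6.07 and 9.69 to 11.1 in HCT-116 with DMSO and PAA, and 204 to 206 and 245 to 248 in RKO. CD68, a lysosomal protein used as a macrophage marker, made up most of the sum in RKO, with 203 to 248 FPKM. The part of the mitochondrial share and of these markers in the results below was not tested, except that the calls were repeated after scaling to nuclear genes.

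The proximal promoters of the genes are shown because several hold letter matches to kB elements, the DNA sites that NF-kB dimers bind, although the genes did not all move together. RefSeq promoter windows of GRCh38.p14, from 250 bases before to 50 bases after each annotated start, were found for 9 of the 10 genes, all but RELB, with 13 starts in all. The 6 windows below, all picked among those with a match, are written 5′ to 3′ on the strand of the gene. Neither RELA window held a match. A window of NFKB1 (GGGAATTTCC at -49) and that of TNFAIP3 held matches and are not printed. Capitals mark matches on either strand to the NF-kB consensus, taken as GGGRNNYYCC, or to the shorter palindrome GGAANTTCC. Here R is A or G, Y is C or T and N is any base. The window of NFKB2 is that of the middle of its annotated starts, which holds the most consensus matches.
CXCL8 (chr4:73740319-73740618, strand plus): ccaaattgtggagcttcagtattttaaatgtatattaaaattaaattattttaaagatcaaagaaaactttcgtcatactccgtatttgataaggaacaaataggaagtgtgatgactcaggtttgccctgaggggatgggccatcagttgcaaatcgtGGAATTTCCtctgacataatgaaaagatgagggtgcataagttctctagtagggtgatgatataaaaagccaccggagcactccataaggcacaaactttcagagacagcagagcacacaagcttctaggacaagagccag
ICAM1 (chr19:10270870-10271169, strand plus): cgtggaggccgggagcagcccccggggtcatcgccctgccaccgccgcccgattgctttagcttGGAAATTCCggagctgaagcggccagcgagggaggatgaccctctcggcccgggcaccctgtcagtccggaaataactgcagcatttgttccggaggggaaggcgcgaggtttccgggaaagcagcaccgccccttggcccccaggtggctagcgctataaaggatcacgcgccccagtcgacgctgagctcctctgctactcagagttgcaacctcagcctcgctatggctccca
NFKBIA (chr14:35404700-35404999, strand minus): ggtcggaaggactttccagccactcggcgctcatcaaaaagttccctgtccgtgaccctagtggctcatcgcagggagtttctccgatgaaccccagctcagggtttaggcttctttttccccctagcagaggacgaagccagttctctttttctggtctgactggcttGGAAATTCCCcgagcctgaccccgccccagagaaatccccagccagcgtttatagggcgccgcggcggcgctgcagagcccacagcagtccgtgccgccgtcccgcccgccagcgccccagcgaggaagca
CXCL1 (chr4:73869143-73869442, strand plus): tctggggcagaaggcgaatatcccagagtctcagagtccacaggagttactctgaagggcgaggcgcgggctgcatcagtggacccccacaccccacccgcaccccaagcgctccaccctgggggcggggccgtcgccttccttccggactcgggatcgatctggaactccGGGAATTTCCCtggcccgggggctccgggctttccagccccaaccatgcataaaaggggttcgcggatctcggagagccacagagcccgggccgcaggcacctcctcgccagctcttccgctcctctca
NFKB2 (chr10:102394328-102394627, strand plus): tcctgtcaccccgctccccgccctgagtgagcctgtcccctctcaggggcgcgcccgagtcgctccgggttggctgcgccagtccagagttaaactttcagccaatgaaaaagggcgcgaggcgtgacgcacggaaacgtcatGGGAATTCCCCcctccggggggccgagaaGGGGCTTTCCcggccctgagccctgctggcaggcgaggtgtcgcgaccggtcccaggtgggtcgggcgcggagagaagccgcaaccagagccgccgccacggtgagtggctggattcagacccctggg
BIRC3 (chr11:102317234-102317533, strand plus): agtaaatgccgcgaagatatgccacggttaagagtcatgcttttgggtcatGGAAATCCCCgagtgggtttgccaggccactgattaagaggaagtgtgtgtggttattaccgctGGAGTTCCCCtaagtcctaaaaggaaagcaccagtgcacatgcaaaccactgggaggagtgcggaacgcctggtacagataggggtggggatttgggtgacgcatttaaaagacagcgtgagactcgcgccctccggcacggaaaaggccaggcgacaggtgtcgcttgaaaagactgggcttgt

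The NF-kB consensus was found in 7 of the 13 windows, belonging to 6 of the 9 genes, and in 11.3% of the 35116 promoter windows in the RefSeq table. GGAANTTCC was found in 5 windows, those of NFKB1, NFKBIA, CXCL8, CXCL1 and ICAM1, and in 0.965% of all windows. These matches overlap: in NFKB1, NFKBIA and CXCL1 the palindrome lies inside a consensus match, while CXCL8 and ICAM1 hold the palindrome without it. TATAAA, the core of the TATA box, was found in NFKBIA, CXCL8 and ICAM1 on either strand and in 11.5% of all windows. TGANTCA, the element of AP-1 factors, was found in CXCL8 and in 7.71% of all windows. The motifs were chosen after the sequences were seen, and a match is a description of letters, not of binding.

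**Figure D1:**
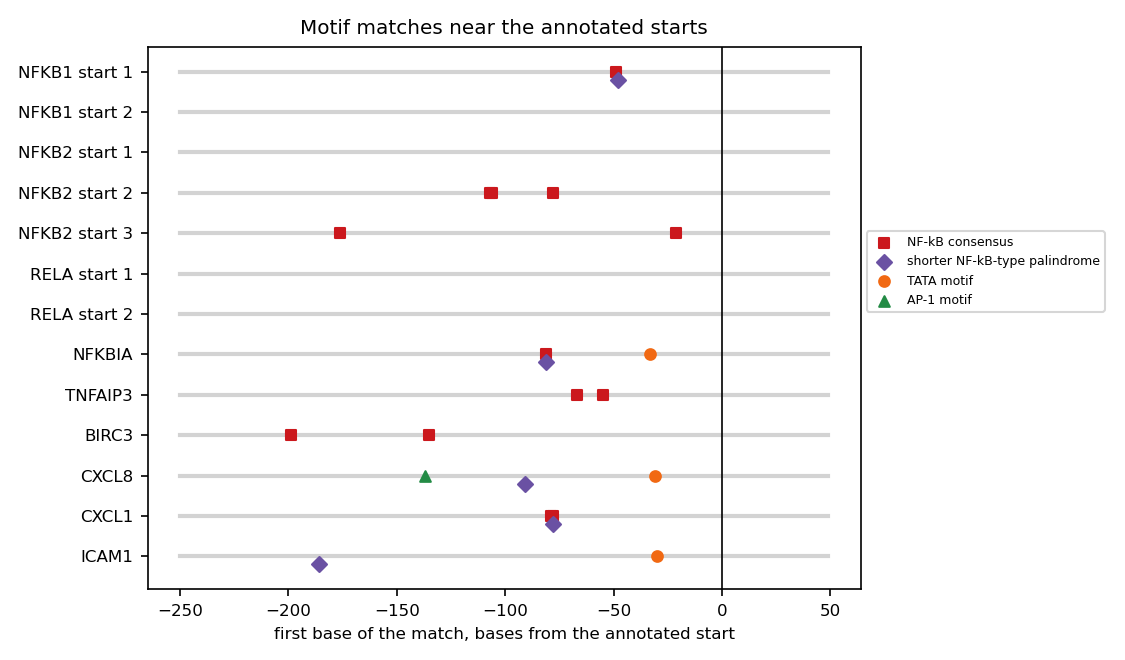
Motif matches in the promoter windows. Each grey line is 1 annotated start of 1 gene, the horizontal axis is the distance in bases from that start (0), and symbols mark the first base of a match on either strand. The shorter palindrome of CXCL8 begins at -91, that of CXCL1 at -78 and that of ICAM1 at -186.

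With PAA, 5 of the 10 genes rose and 1 fell in HCT-116, while 7 rose and none fell in RKO. A gene was called at an adjusted p under 0.05 (limma on log2(FPKM + 1), Benjamini-Hochberg over 13881 genes), and all values below called adjusted p come from that fit unless another is named. Of all genes tested in HCT-116, 47.1% were called, 21.7% as higher and 25.3% as lower. In RKO, 40.0% were called, 25.7% as higher and 14.3% as lower. The genes that rose in HCT-116 were CXCL8, RELA, RELB, NFKB2 and TNFAIP3, and the gene that fell was ICAM1. Those that rose in RKO were CXCL8, RELB, ICAM1, NFKBIA, NFKB2, BIRC3 and TNFAIP3. CXCL8, RELB, NFKB2 and TNFAIP3 rose in both lines, as did 12.4% of all genes tested. Groups of PAA and DMSO libraries did not overlap in 56.5% of all genes tested in HCT-116 and in 61.6% in RKO, so a gap between groups is common here. The median log2 fold change of the 10 was 0.33 in HCT-116 and 0.64 in RKO, where the medians over all genes were -0.01 and 0.06. TNFAIP3 and CXCL1 entered the test only through PAA libraries and BIRC3 only through RKO libraries, so these counts describe the 10 genes and are not evidence for a change of the pathway.

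Scaling each library to a common FPKM total moved the RKO median over all genes from 0.06 to 0.28 and the share of calls that were higher from 64.3% to 90.5%. In HCT-116 that share went from 46.2% to 61.5%. Under this scaling 7 of the 10 genes were called higher and 1 lower in HCT-116, and 8 higher in RKO. Of the 13938 genes tested then, 4032 were called higher and 2526 lower in HCT-116, and 6947 and 726 in RKO. Median-of-ratios scaling moved RKO the other way, to a median of 0.0 and a share of 48.3%. Of the 10 genes, 6 were then called higher and 1 lower in HCT-116, and 7 higher and 1 lower in RKO. Of 13876 genes tested, 3116 were then higher and 3457 lower in HCT-116, and 2597 and 2776 in RKO. With the sum of isoform values 4 were higher and 1 lower in HCT-116, and 5 higher and 1 lower in RKO. Among the 14802 genes tested on those sums, 2675 were higher and 3163 lower in HCT-116, and 2977 and 1562 in RKO. With scaling to the total of nuclear genes the counts were 5 higher and 1 lower in HCT-116 and 7 higher in RKO, as with the values as deposited. All-gene counts were then 2489 higher and 4102 lower in HCT-116, and 3190 and 2074 in RKO, of 13887 tested.

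**Figure D2:**
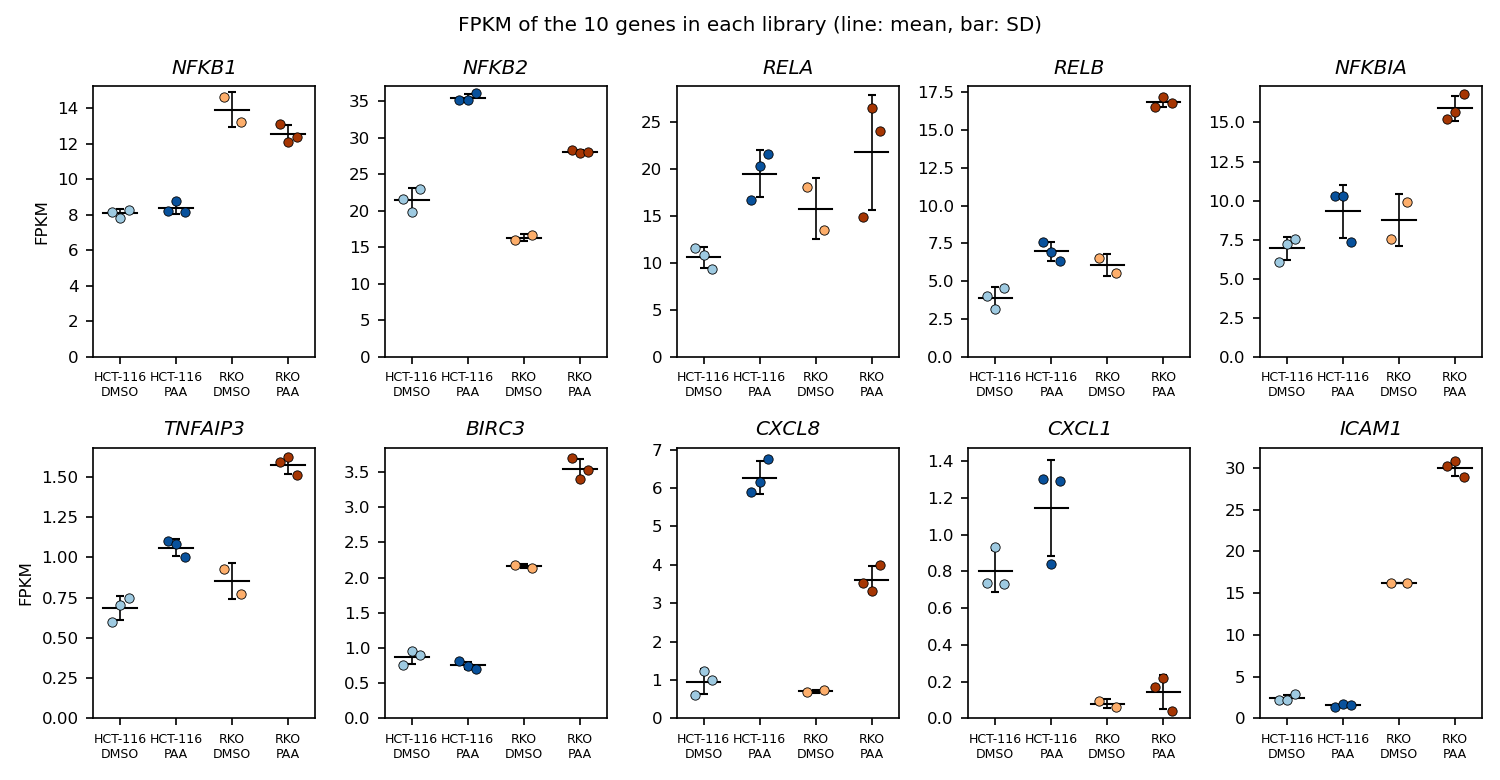
FPKM of the 10 genes in each library. Points are libraries, the horizontal line is the group mean and the bar is the standard deviation (n = 3, and n = 2 for RKO with DMSO). CXCL8 lies at 5.90 to 6.75 FPKM in HCT-116 with PAA against 0.61 to 1.24 with DMSO, and ICAM1 moves in opposite directions in the lines.

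CXCL8 (ENSG00000169429, chromosome 4, 73740506 to 73743716, GRCh38, plus strand) encodes interleukin-8, the chemokine that attracts neutrophils. Its FPKM in HCT-116 was 0.61, 1.24 and 1.01 with DMSO and 5.9, 6.16 and 6.75 with PAA. The RKO libraries stood at 0.681 and 0.736 with DMSO and at 3.52, 3.33 and 4.0 with PAA. Every PAA library was above every DMSO library of its line, and the vehicle levels of the lines overlapped. The mean rose from 0.952 ± 0.32 (SD, n = 3) to 6.27 ± 0.44 (SD, n = 3) in HCT-116, a ratio of 6.59. Its log2 fold change was 1.91 ± 0.11 (SE, adjusted p = 1.74e-06). In RKO the mean rose from 0.709 ± 0.039 (SD, n = 2) to 3.62 ± 0.34 (SD, n = 3), a ratio of 5.11 and a log2 fold change of 1.43 ± 0.13 (SE, adjusted p = 3.66e-05). On this scale these were the largest rises among the 10 genes in each line. The difference between the lines, RKO minus HCT-116, was -0.48 ± 0.17 on the log2 scale (adjusted p = 0.0626), and it passed the threshold without HCT-116 DMSO replicate 2 (-0.58, adjusted p = 0.0209) and with median-of-ratios scaling (-0.58, adjusted p = 0.0346).

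CXCL1 (ENSG00000163739, chromosome 4, 73869393 to 73871242, plus strand), another neutrophil chemokine, lies on the same arm of chromosome 4 as CXCL8. Its FPKM in HCT-116 was 0.739, 0.935 and 0.73 with DMSO and 1.30, 0.842 and 1.29 with PAA. In RKO the 5 libraries lay between 0.0396 and 0.222. PAA replicate 2 of HCT-116 fell inside the range of the DMSO libraries, and the RKO groups overlapped as well. Only HCT-116 PAA libraries reached 1 FPKM, so CXCL1 was tested only through the group where it is high. Log2 fold changes were 0.25 ± 0.10 (SE, adjusted p = 0.0773) in HCT-116 and 0.08 ± 0.11 (SE, adjusted p = 0.637) in RKO. Without HCT-116 PAA replicate 2 it was 0.35 and passed the threshold (adjusted p = 0.0106).

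CXCL2 and CXCL3, close paralogs of CXCL1, rose in HCT-116. CXCL3 was 0.304, 0.263 and 0.17 FPKM with DMSO and 2.38, 1.99 and 1.82 with PAA, a log2 fold change of 1.29 ± 0.079 (SE, adjusted p = 2e-06). CXCL2 was 0.298, 0.659 and 0.639 FPKM with DMSO and 1.47, 1.45 and 1.08 with PAA, a log2 fold change of 0.61 ± 0.11 (SE, adjusted p = 0.0015). Both genes reached 1 FPKM in the HCT-116 PAA libraries alone and were tested only through the group where they are high, so these values are a description. In RKO both stayed under 0.5 FPKM and neither was called. The groups overlapped in neither line for either gene. In RKO the ratio of means was 1.75 for CXCL2 and 2.28 for CXCL3, and the log2 fold change of CXCL3, 0.19 (adjusted p = 0.12), passed the threshold with a pseudocount of 0.1 (0.76, adjusted p = 0.0219), with a common total (0.24, adjusted p = 0.0425) and with 1 line per fit (0.19, adjusted p = 0.0405). The difference between the lines was -1.10 ± 0.12 for CXCL3 (adjusted p = 0.000177) and -0.42 ± 0.16 for CXCL2 (adjusted p = 0.0838), the latter passing without HCT-116 PAA replicate 3 (-0.50, adjusted p = 0.0482). The windows of CXCL1, CXCL2 and CXCL3 each hold the same palindrome inside 2 overlapping consensus matches. Fragments of such near copies can be assigned to the wrong paralog, so the split among the 3 genes is uncertain.

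ICAM1 (ENSG00000090339, chromosome 19, 10270835 to 10286615, plus strand) encodes the surface protein through which leukocytes attach. Its FPKM in HCT-116 was 2.23, 2.16 and 2.90 with DMSO and 1.40, 1.75 and 1.57 with PAA. The RKO libraries had 16.2 and 16.2 with DMSO and 30.3, 30.8 and 28.9 with PAA. No group overlapped another, and the order was RKO with PAA, RKO with DMSO, HCT-116 with DMSO and HCT-116 with PAA. Effects on the log2 scale were -0.41 ± 0.082 (SE, adjusted p = 0.00286) in HCT-116 and 0.85 ± 0.092 (SE, adjusted p = 0.000113) in RKO. The difference of 1.26 ± 0.12 between the effects also passed (adjusted p = 0.000108). A fall in HCT-116 together with a rise in RKO was called in 2.92% of all genes tested. ICAM1 kept these calls under each alternative setting tried. With DMSO, ICAM1 was 6.64 times as high in RKO as in HCT-116, a log2 difference of 2.33 ± 0.092 (SE, adjusted p = 2.51e-08). AC011511.2 and AC011511.5, which overlap ICAM1 on the other strand, reached at most 0.877 FPKM, and the use of strand in counting is not given in the sources used here.

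**Figure D3:**
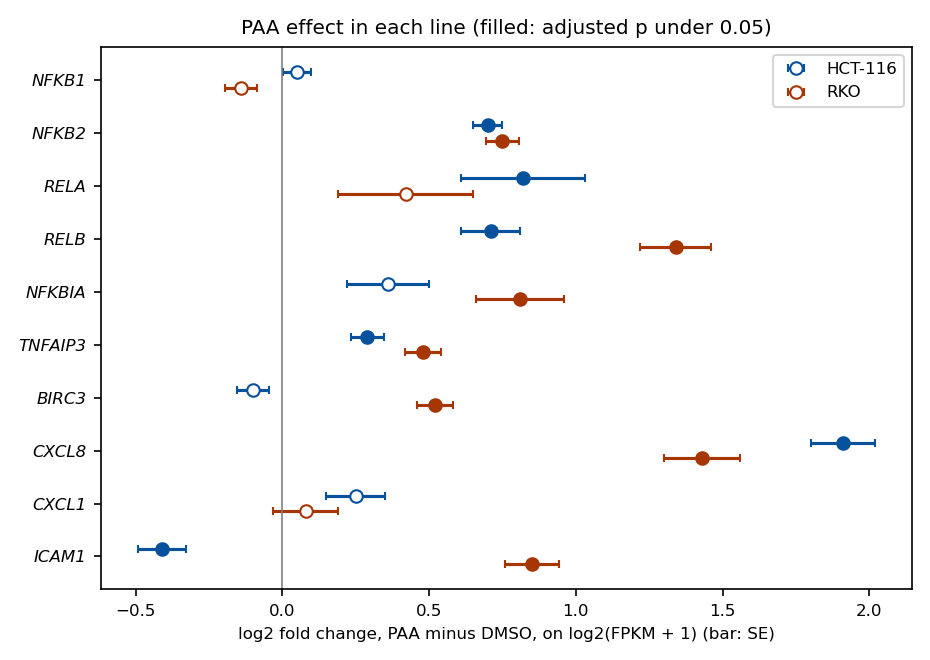
Log2 fold change of the 10 genes with PAA in each line, on log2(FPKM + 1). Points are fitted effects, bars are standard errors, and filled points passed the threshold. ICAM1 lies at -0.41 in HCT-116 and at 0.85 in RKO, and NFKB2 at 0.70 and 0.75.

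RELB and NFKB2, the subunits of the slower branch, rose in both lines. RELB (ENSG00000104856, chromosome 19, 45001430 to 45038198, plus strand) was at 4.01, 3.18 and 4.53 FPKM in HCT-116 with DMSO and at 7.60, 6.95 and 6.34 with PAA. RKO libraries stood at 6.56 and 5.53 with DMSO and at 16.5, 17.2 and 16.8 with PAA. The groups did not overlap within either line. On the log2 scale RELB rose by 0.71 ± 0.10 (SE, adjusted p = 0.000494) in HCT-116 and 1.34 ± 0.12 (SE, adjusted p = 3.24e-05) in RKO. The rise was larger in RKO by 0.64 ± 0.16 (adjusted p = 0.0136), a difference that missed the threshold without RKO DMSO replicate 3 (0.53, adjusted p = 0.0626).

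NFKB2 (ENSG00000077150, chromosome 10, 102394110 to 102402529, plus strand) encodes the p100 precursor, which is itself an inhibitor until it is processed. Its FPKM was 21.6, 19.8 and 23.0 in HCT-116 with DMSO and 35.2, 35.2 and 36.1 with PAA. The values in RKO were 16.0 and 16.7 with DMSO and 28.4, 27.9 and 28.0 with PAA. Groups again did not overlap within either line, and the standard deviations of the PAA groups were 0.53 FPKM in HCT-116 and 0.28 FPKM in RKO. The log2 fold change was 0.70 ± 0.049 (SE, adjusted p = 4.65e-06) in HCT-116 and 0.75 ± 0.055 (SE, adjusted p = 1.25e-05) in RKO. The effects differed by 0.04 ± 0.074 (adjusted p = 0.706).

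RELA (ENSG00000173039, chromosome 11, 65653596 to 65663094, minus strand), the p65 subunit that carries an activation domain, varied more between replicates. Its FPKM was 11.6, 10.9 and 9.40 in HCT-116 with DMSO and 16.7, 20.3 and 21.6 with PAA. For RKO they were 18.1 and 13.5 with DMSO and 14.9, 26.5 and 24.1 with PAA. The groups were apart in HCT-116 and overlapped in RKO, where PAA replicate 1 lay between the DMSO libraries. The log2 fold change was 0.82 ± 0.21 (SE, adjusted p = 0.0096) in HCT-116. The RKO effect was 0.42 ± 0.23 (SE, adjusted p = 0.185), and it was 0.66 and passed without RKO PAA replicate 1 (adjusted p = 0.0144). The other library omissions in RKO gave 0.22 to 0.62, none of them past the threshold.

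NFKB1 (ENSG00000109320, chromosome 4, 102501329 to 102617302, plus strand), the source of p50 and the usual partner of RELA, was at 8.14, 7.83 and 8.27 FPKM in HCT-116 with DMSO and at 8.21, 8.77 and 8.14 with PAA. RKO libraries stood at 14.6 and 13.2 with DMSO and at 13.1, 12.1 and 12.4 with PAA. The HCT-116 groups overlapped, while the RKO groups lay close together without overlap. NFKB1 was not called in HCT-116 (0.05 ± 0.049, adjusted p = 0.488) or in RKO (-0.14 ± 0.055, adjusted p = 0.0695). A fall in RKO was called with median-of-ratios scaling (-0.24, adjusted p = 0.00608), with the sum of isoform values (-0.35, adjusted p = 0.0301) and without RKO DMSO replicate 3 (-0.21, adjusted p = 0.0376), and was 0.12 with a common total. REL, the remaining subunit gene, ranged from 0.399 to 1.29 FPKM and was called in neither line. Of the 5 subunit genes, 3 rose in HCT-116 and 2 in RKO, beside 21.7% and 25.7% of all genes tested. None was called lower with the values as deposited.

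NFKBIA (ENSG00000100906, chromosome 14, 35401511 to 35404749, minus strand) encodes IkB alpha, the inhibitor that NF-kB itself induces. Its FPKM was 6.10, 7.24 and 7.51 in HCT-116 with DMSO and 10.3, 10.3 and 7.33 with PAA. The RKO values were 7.57 and 9.91 with DMSO and 15.2, 15.7 and 16.8 with PAA. PAA replicate 3 of HCT-116 lay among the DMSO libraries, whereas the RKO groups were apart. NFKBIA changed by 0.36 ± 0.14 (SE, adjusted p = 0.0552) on the log2 scale in HCT-116, and by 0.51 without PAA replicate 3 (adjusted p = 0.0073). It also passed, at an unmoved 0.36, in the fits without RKO DMSO replicate 2 or 3 (adjusted p = 0.0461 in each). The rise in RKO was 0.81 ± 0.15 (SE, adjusted p = 0.00278). The difference between the lines did not pass (0.44 ± 0.21, adjusted p = 0.142).

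TNFAIP3 (ENSG00000118503, chromosome 6, 137867188 to 137883312, plus strand) encodes A20, a ubiquitin-editing enzyme that shuts the pathway down. Its FPKM was 0.601, 0.704 and 0.745 in HCT-116 with DMSO and 1.10, 1.08 and 1.00 with PAA. The RKO values were 0.93 and 0.771 with DMSO and 1.59, 1.62 and 1.51 with PAA. The groups did not overlap in either line, at levels near the minimum of 1 FPKM used for testing. Only PAA libraries reached that minimum, so TNFAIP3 was tested only through the groups where it is high. The effects that follow are therefore a description. TNFAIP3 rose by 0.29 ± 0.055 (SE, adjusted p = 0.00211) in HCT-116 and by 0.48 ± 0.062 (SE, adjusted p = 0.000321) in RKO on the log2 scale. With the sum of isoform values in place of the gene value the log2 fold changes were larger, at 0.39 and 0.59, and their errors larger too (SE 0.19 and 0.21), and neither passed the threshold (adjusted p = 0.133 and 0.0621).

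BIRC3 (ENSG00000023445, chromosome 11, 102317450 to 102339403, plus strand) encodes cIAP2, a ubiquitin ligase that acts at the tumor necrosis factor receptor and protects from cell death. Its FPKM was 0.761, 0.955 and 0.907 in HCT-116 with DMSO and 0.809, 0.748 and 0.697 with PAA. RKO had 2.18 and 2.14 with DMSO and 3.70, 3.40 and 3.53 with PAA. The HCT-116 groups overlapped, and every RKO library with PAA was above the vehicle libraries. Only RKO libraries reached 1 FPKM, so BIRC3 was tested only through the line where it is high. Its difference between the lines is therefore a description. The log2 fold change was -0.10 ± 0.054 (SE, adjusted p = 0.173) in HCT-116 and 0.52 ± 0.06 (SE, adjusted p = 0.000161) in RKO. The difference of 0.62 ± 0.081 passed the threshold (adjusted p = 0.000536). With the sum of isoform values it was 0.67 and did not pass (adjusted p = 0.284), nor did the rise in RKO (0.81, adjusted p = 0.0707).

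The PAA effects on ICAM1, RELB and BIRC3 differed between the lines, all 3 in the direction of RKO. That count of 3 in 10 stands beside 31.0% of all genes tested, 21.3% in the direction of RKO and 9.68% in that of HCT-116, so it is near the background and is no result about the 10 genes as a set. In vehicle, 6 of the 10 differed between RKO and HCT-116, beside 64.1% of all genes, 33.4% as higher and 30.7% as lower in RKO, again near the background. Vehicle groups of the lines did not overlap in 76.3% of all genes. ICAM1, BIRC3, NFKB1 and RELB were higher in RKO, and CXCL1 and NFKB2 were lower. NFKB1 was 1.72 times as high in RKO (log2 difference 0.72 ± 0.055, adjusted p = 2.71e-06), and BIRC3 2.47 times as high (0.75 ± 0.06, adjusted p = 3.46e-06). CXCL1 stood at 0.801 ± 0.12 FPKM (SD, n = 3) in HCT-116 and 0.0801 ± 0.023 (SD, n = 2) in RKO, a log2 difference of -0.74 ± 0.11 (adjusted p = 0.000357). BIRC3 entered the test only through RKO libraries and CXCL1 only through HCT-116 PAA libraries, each in the line where it is high. The vehicle differences of BIRC3 and CXCL1 are therefore a description. CXCL8, which rose most with PAA, did not differ past the threshold between the vehicle groups (-0.18 ± 0.13, adjusted p = 0.248), although it did without HCT-116 DMSO replicate 1 (-0.31, adjusted p = 0.0173).

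Isoform values showed which transcripts stood behind the gene values. The 10 genes have 92 annotated isoforms, of which 30 were tested, and 3 were called in HCT-116 and 4 in RKO, beside 7.28% and 4.2% of all isoforms tested. Calls as higher made up 3.35% and 2.53% of all isoforms tested. RELB-202, the main protein-coding isoform of RELB, rose from 5.07, 3.93 and 6.02 FPKM to 10.0, 8.93 and 8.36 in HCT-116 (log2 fold change 0.76 ± 0.15, adjusted p = 0.021). In RKO it rose from 8.52 and 6.27 to 21.5, 22.5 and 22 (1.47 ± 0.17, adjusted p = 0.00254). CXCL8-201 rose in both lines, by 2.15 ± 0.22 (adjusted p = 0.000609) and 1.61 ± 0.24 (adjusted p = 0.00782) on the log2 scale. ICAM1-201 changed by -0.45 ± 0.11 in HCT-116 (adjusted p = 0.0459) and by 0.86 ± 0.13 in RKO (adjusted p = 0.00681). These follow the direction of their gene values. NFKBIA-208, named after its values were seen, rose in RKO from 1.19 and 0 FPKM to 6.17, 3.01 and 7.24 (2.06 ± 0.47, adjusted p = 0.0481). Leaving out HCT-116 DMSO replicate 1 or 2 or PAA replicate 1 or 2 left 1 isoform called in HCT-116, and leaving out RKO DMSO replicate 2 or 3 left 1 in RKO.

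RELA and NFKB2 were split over isoforms in a way that differed between replicates. RELA-217, a transcript of 2251 bases with a retained intron, was at 7.09, 3.96 and 3.21 FPKM in HCT-116 with DMSO and at 13.2, 37.1 and 35.7 with PAA. RKO had 25.4 and 3.27 with DMSO, and RELA-217 was listed at 0 in PAA replicate 1, with 39.9 and 42.9 in replicates 2 and 3. The libraries of RKO with a high gene value of RELA were those with a high value of RELA-217. The sum of protein-coding RELA isoforms was 17.6, 18.5 and 16.9 FPKM in HCT-116 with DMSO and 22.9, 10.4 and 14.1 with PAA. In RKO that sum was 16.7 and 26.2 with DMSO and 29.6, 21.5 and 14.8 with PAA. Those ranges overlap in both lines, and no isoform of RELA was called. The gene value of RELA was 0.373 to 0.42 of the sum of its isoforms.

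NFKB2-203, a protein-coding isoform, was listed at 0 in HCT-116 DMSO replicates 1 and 2, at 17.2 FPKM in replicate 3 and at 25.1, 20.9 and 20.6 with PAA. In RKO NFKB2-203 was at 3.36 and 11.4 with DMSO and at 0.113, 0.667 and 17.3 with PAA. NFKB2-204, also protein coding, was at 16.4, 6.65 and 7.05 FPKM in HCT-116 with DMSO and at 14.5, 20.4 and 17.5 with PAA. Its RKO values were 6.22 and 5.5 with DMSO and 27.9, 12.0 and 10.7 with PAA. Neither was called in either line. Their sum with the other protein-coding isoforms in HCT-116 was 19.9, 10.6 and 25.6 with DMSO and 42.3, 43.5 and 40.4 with PAA. In RKO the protein-coding sum was 13.7 and 18.4 with DMSO and 30.7, 22.3 and 32.0 with PAA. These sums did not overlap within either line. BIRC3-203, a short isoform, was at 4.05 FPKM in RKO PAA replicate 1 and listed at 0 in the other RKO libraries, while BIRC3-201 was at 2.33 and 2.28 with DMSO and 3.30, 3.22 and 3.73 with PAA.

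**Figure D4:**
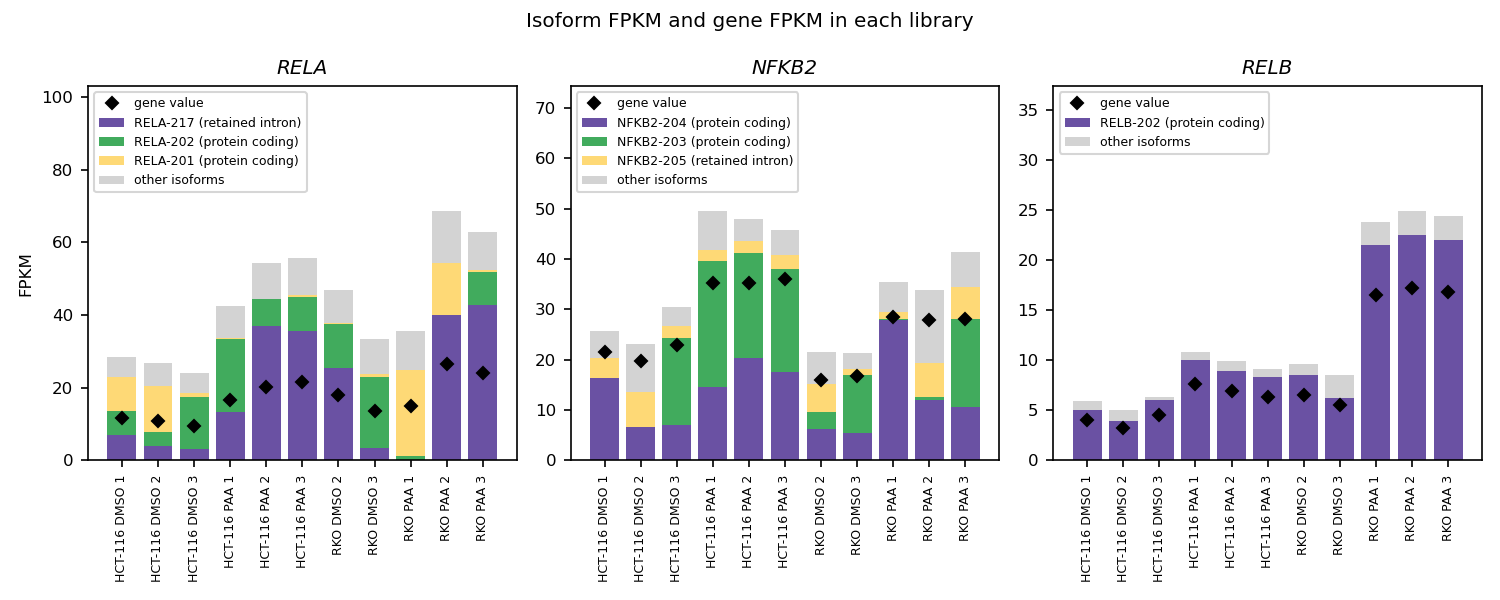
FPKM of the isoforms of RELA, NFKB2 and RELB in each library. Bars stack the named isoforms and the sum of the others, and the diamond is the gene value. The RELA-217 bar is 37.1 and 35.7 FPKM in HCT-116 PAA replicates 2 and 3 and 0 in RKO PAA replicate 1, while RELB is carried mostly by RELB-202 in every library.

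Genes of the pathway were grouped by role in 7 lists, which hold the 10 genes as well. Each count below from the values as deposited is to be read beside the all-gene shares. These were 21.7% higher and 25.3% lower in HCT-116 and 25.7% higher and 14.3% lower in RKO. Counts under another scaling are to be read beside the all-gene counts of that scaling. Among 13 tested IkB proteins and feedback inhibitors, 8 rose and 1 fell in HCT-116, and 9 rose and none fell in RKO. TNFAIP3 is in both counts of rises and NFKBIA in that of RKO. TNFAIP3 was tested only through PAA libraries, where it is high. The medians were 0.34 and 0.55 on the log2 scale. TNIP1, which recruits A20, was at 6.13, 6.31 and 5.79 FPKM in HCT-116 with DMSO and at 9.38, 10.3 and 8.66 with PAA (0.56 ± 0.08, adjusted p = 0.000415). It also rose in RKO (0.66 ± 0.09, adjusted p = 0.000435). CYLD, a deubiquitinase that limits signaling, rose by 0.53 ± 0.097 (adjusted p = 0.00177) and 1.01 ± 0.11 (adjusted p = 0.000108). NFKBIZ, an atypical nuclear IkB protein, was at 4.09 and 6.09 FPKM in RKO with DMSO and at 10.5 to 11 with PAA (0.96 ± 0.13, adjusted p = 0.000401). Its smaller rise in HCT-116 (0.34 ± 0.12, adjusted p = 0.0356) was lost under several alternatives, among them the fit without HCT-116 DMSO replicate 3 (0.28, adjusted p = 0.113). BCL3, another nuclear IkB protein, rose in RKO (0.72 ± 0.09, adjusted p = 0.000267), and its fall in HCT-116 (-0.24 ± 0.08, adjusted p = 0.0379) was lost under 10 of the alternatives tried, among them the fits without HCT-116 DMSO replicate 1 or 3, without any 1 of the HCT-116 PAA replicates and without RKO PAA replicate 2 (-0.26 to -0.21, adjusted p = 0.0523 to 0.112).

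Among the 23 genes of the IKK complex and its adaptors, 8 rose and 3 fell in HCT-116 and 9 rose and 1 fell in RKO. The genes called, 11 and 10 of 23, are near the 47.1% and 40.0% of all genes tested. The median in RKO was 0.13, and with median-of-ratios scaling it was 0.02, with 7 higher and 3 lower. With a common total it was 0.38, with 17 higher and none lower. Among all 13876 genes tested in RKO with median-of-ratios scaling, 2597 were higher and 2776 lower. With a common total 6947 of 13938 were higher and 726 lower, so these counts move with the background. RBCK1, the HOIL-1 subunit of the linear ubiquitin ligase, was at 7.48, 6.32 and 6.62 FPKM in HCT-116 with DMSO and at 20.9, 22.7 and 20.1 with PAA. In RKO it was at 7.65 and 8.71 with DMSO and at 19.4, 21.7 and 18.9 with PAA. The groups were far apart in both lines, with log2 fold changes of 1.51 ± 0.079 (adjusted p = 7.78e-07) and 1.19 ± 0.088 (adjusted p = 1.27e-05). MYD88, the adaptor of Toll-like and interleukin-1 receptors, fell in HCT-116 (-0.60 ± 0.043, adjusted p = 5.61e-06), a call lost with the sum of isoform values (-0.46, adjusted p = 0.577). IKBKG, the regulatory subunit of the complex, rose in HCT-116 (0.49 ± 0.11, adjusted p = 0.00634). Its rise in RKO (0.40 ± 0.13, adjusted p = 0.0311) was lost under several alternatives, among them median-of-ratios scaling (0.32, adjusted p = 0.079). TRADD, an adaptor of the tumor necrosis factor receptor, rose by 0.91 ± 0.085 in RKO (adjusted p = 4.76e-05) and by 0.29 ± 0.076 in HCT-116 (adjusted p = 0.0111). IKBKE, an IKK-related kinase, fell in HCT-116 (-0.33 ± 0.062, adjusted p = 0.0022). Its fall in RKO (-0.20 ± 0.07, adjusted p = 0.0485) was lost without any 1 library other than RKO PAA replicate 2 (-0.23 to -0.14, adjusted p = 0.0521 to 0.176).

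Of 15 receptors 7 were tested, and 4 rose and 1 fell in HCT-116 while 2 rose and none fell in RKO. The RKO count is near the all-gene share of 25.7% higher, and it became 4 with a pseudocount of 0.1 and 6 with a common total. Of all genes tested in RKO, 3510 of 13881 were higher with that pseudocount and 6947 of 13938 with the common total. TNFRSF12A, the receptor of TWEAK and an activator of the slower branch, was at 61.8, 61.5 and 69.8 FPKM in HCT-116 with DMSO and at 105, 109 and 109 with PAA. It rose in both lines (0.73 ± 0.068, adjusted p = 2.64e-05, and 0.77 ± 0.076, adjusted p = 6.8e-05). LTBR, the lymphotoxin beta receptor, which signals through the same branch, rose in RKO (0.48 ± 0.059, adjusted p = 0.00022). Its smaller rise in HCT-116 (0.16 ± 0.052, adjusted p = 0.0339) was lost under several alternatives, among them a common nuclear total (0.10, adjusted p = 0.151). TNFRSF1A, the main receptor of tumor necrosis factor, rose in HCT-116 (0.55 ± 0.045, adjusted p = 1.17e-05) and was 0.04 ± 0.05 in RKO (adjusted p = 0.534). NOD1, a sensor of bacterial wall fragments, fell in HCT-116 (-0.22 ± 0.067, adjusted p = 0.0244), a call lost without DMSO replicate 2 or 3 or PAA replicate 1 or 2 of that line (-0.22 to -0.19, adjusted p = 0.0539 to 0.0783).

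**Figure D5:**
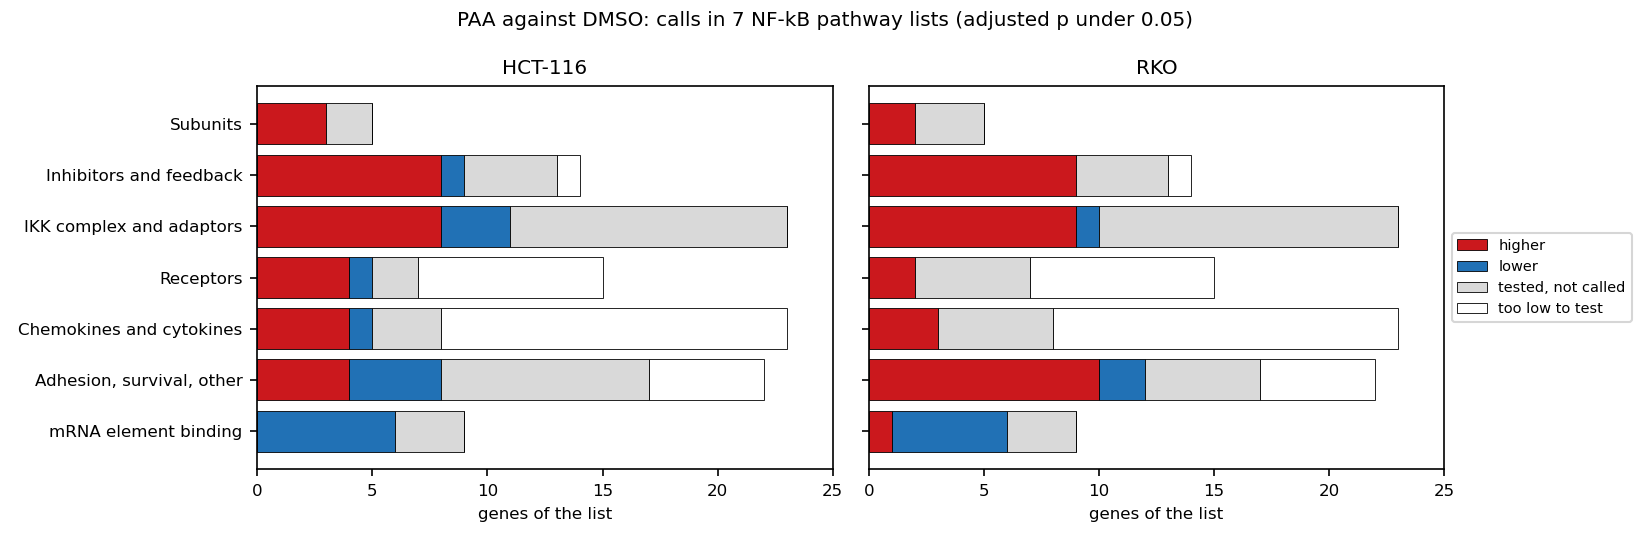
Calls in 7 lists of NF-kB pathway genes with PAA in each line. The horizontal axis counts genes of a list, and colors split them into higher, lower, tested without a call and too low to test. In the list of inhibitors and feedback genes, which also holds the nuclear IkB proteins, 8 and 9 genes rose, and among the mRNA element binding factors 6 and 5 fell.

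Of 23 chemokines and cytokines 8 reached the minimum, and 4 rose and 1 fell in HCT-116 while 3 rose in RKO. CXCL8 is among both counts of rises, and CXCL2 and CXCL3 among that of HCT-116. CXCL2 and CXCL3 were tested only through the HCT-116 PAA libraries, where they are high, so the HCT-116 count is a description. LIF, a cytokine of the interleukin-6 family, moved as ICAM1 did, from 31.5, 29.5 and 33.4 FPKM to 15.8, 16.0 and 16.1 in HCT-116 (-0.93 ± 0.044, adjusted p = 4.34e-07). In RKO it went from 36.3 and 36.0 to 46.0, 48.6 and 46.7 (0.37 ± 0.049, adjusted p = 0.000367). CSF1, the macrophage growth factor, rose in RKO (0.52 ± 0.093, adjusted p = 0.0021).

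Of 22 adhesion, survival and other targets 17 were tested, ICAM1 and BIRC3 among them. In HCT-116, 4 rose and 4 fell, ICAM1 among the latter, which together is near the 47.1% of all genes called. The median of -0.01 ran from -0.06 to 0.10 with the scaling, and the count became 2 higher and 6 lower with a common nuclear total. With that total, 2489 of 13887 genes tested were higher and 4102 lower in HCT-116. In RKO, 10 rose, ICAM1 and BIRC3 among them, and 2 fell, with a median of 0.34. SDC4, a surface proteoglycan, rose in both lines (1.01 ± 0.041, adjusted p = 1.84e-07, and 0.50 ± 0.045, adjusted p = 4.22e-05). TRAF1, a signaling adaptor, was at 0.592 and 0.439 FPKM in RKO with DMSO and at 2.01, 1.97 and 1.98 with PAA (0.98 ± 0.073, adjusted p = 1.35e-05), and it reached 1 FPKM and so was tested only through those PAA libraries. Its smaller rise in HCT-116 (0.19 ± 0.065, adjusted p = 0.044) was lost under many alternatives, among them 1 line per fit (0.19, adjusted p = 0.0617). NINJ1, a membrane protein of cell rupture, rose in RKO (1.06 ± 0.17, adjusted p = 0.000974). GADD45B, a stress-response gene, rose in HCT-116 (0.72 ± 0.20, adjusted p = 0.0167), but not past the threshold without DMSO replicate 2 or 3 (0.65 and 0.66, adjusted p = 0.0559 and 0.0557). CD83, a surface protein of activated immune cells, fell in HCT-116 (-0.44 ± 0.04, adjusted p = 2.46e-05). EFNA1, an ephrin ligand, also fell there (-0.39 ± 0.12, adjusted p = 0.0285), a call lost without DMSO replicate 1 or 3 or PAA replicate 1 or 2 (-0.41 to -0.31, adjusted p = 0.0521 to 0.0975). PLAU, the urokinase gene, fell in RKO from 11.3 and 10.1 to 4.1, 4.42 and 4.2 FPKM (-1.16 ± 0.055, adjusted p = 1.09e-06). BCL2A1, a survival gene, fell in RKO from 63.1 and 63.2 FPKM to 38.7, 35.2 and 35.8 (-0.77 ± 0.12, adjusted p = 0.000821). With a pseudocount of 0.1 the effect was much the same and its SE larger, and the call was lost (-0.79 ± 0.6, adjusted p = 0.35). That SE rests on the spread pooled over all groups, and BCL2A1 was at 0 to 0.322 FPKM in HCT-116.

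Stability of inflammatory mRNAs is set by proteins that bind AU-rich or stem-loop elements in them. Of 9 such factors, 6 fell in HCT-116, and 1 rose and 5 fell in RKO. The RKO median of -0.17 turned to 0.11 with a common total, where 3 rose and 3 fell, beside 6947 and 726 of 13938 genes tested. HNRNPD, the AU-rich element binding protein AUF1, was at 47.4, 45.5 and 42.6 FPKM in HCT-116 with DMSO and at 24.6, 32.3 and 23.9 with PAA. In RKO it was at 53.5 and 48.8 with DMSO and at 22.5, 19.6 and 23.9 with PAA. Groups did not overlap, and the log2 fold changes were -0.74 ± 0.11 (adjusted p = 0.00067) and -1.18 ± 0.13 (adjusted p = 0.000113). TIA1, a translational repressor of such mRNAs, fell by 0.52 and 0.48 on the log2 scale (adjusted p = 0.00045 and 0.00173). ZFP36L1, which promotes decay of such mRNAs, rose in RKO (0.37 ± 0.049, adjusted p = 0.000346). It was called lower in HCT-116, a call lost with a common total (-0.05, adjusted p = 0.456) and with a replicate block (-0.16, adjusted p = 0.0547).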

How the data were processed

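Gene and isoform expression was taken from tables of FPKM calculated by the authors, for 60612 genes and 229420 isoforms, and the unit is FPKM per the file headers. From the submitters' processing notes, the steps included cutadapt 1.9 and FastQC, with GRCh38 as the build. Which aligner, quantifier, annotation release and strand setting were used is not given in the sources used here. A missing signal, written as 0.0001, was set to 0. FPKM is not a count, and only 5.64% to 23.2% of values up to 10 fragments were whole multiples of 1 fragment (tolerance 0.02 fragments), so no count model or counting interval was used.

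The test was that of limma 3.58.1 (R 4.3.3) on log2(FPKM + 1), with a mean-variance trend, 1 mean per group over all 11 libraries (7 residual degrees of freedom), two-sided, with Benjamini-Hochberg adjustment and a threshold of 0.05. Fold changes on this scale understate the change of low genes. The 13881 genes with at least 1 FPKM in at least 2 libraries were tested, and isoforms likewise. The procedure was tested on simulated data. Isoforms were annotated with GENCODE 29 (205306 of 229420 matched), and gene symbols came from a table of identifiers, SOD2 from GENCODE 29. Coordinates are those of GRCh38.

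The 10 genes and all lists were chosen with earlier results of these data known. All 10 are named, with, per list and line, up to 2 called genes that rose and 2 that fell by the largest absolute log2 fold change, plus REL, CXCL2 and CXCL3, and isoforms with a group mean of at least 1 FPKM, up to 3 per gene. Alternatives were a pseudocount of 0.1, no filter on low values, scaling to a common total, to a common nuclear total and by median of ratios, the sum of isoform values, 1 line per fit, a replicate block and leaving out each library.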

Additional observations from a re-analysis of the deposited data

Results flagged for a closer look

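The results here are PAA effects that differed between the lines in the interaction contrast of limma (adjusted p under 0.05), given as RKO minus HCT-116 on the log2 scale.

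Among the 10 genes these were ICAM1 (1.26), RELB (0.64) and BIRC3 (0.62). The difference of RELB missed the threshold without RKO DMSO replicate 3 (0.53, adjusted p = 0.0626 by limma), and that of BIRC3 with the sum of isoform values (0.67, adjusted p = 0.284 by limma). BIRC3 was tested only through RKO libraries, where it is high. ICAM1 and LIF (1.31) fell in HCT-116 and rose in RKO. Among IkB proteins and feedback inhibitors the difference was 0.95 for BCL3, 0.62 for NFKBIZ and 0.48 for CYLD. The last 2 of these missed the threshold under many alternatives, not only when single libraries were left out. With a pseudocount of 0.1 NFKBIZ was at 0.38 (adjusted p = 0.323 by limma) and CYLD at 0.36 (adjusted p = 0.246 by limma). With median-of-ratios scaling NFKBIZ was at 0.51 (adjusted p = 0.0572 by limma) and CYLD at 0.39 (adjusted p = 0.0702 by limma). NFKBIZ was at 0.38 without RKO DMSO replicate 2, and CYLD at 0.32 without RKO DMSO replicate 3. Among adaptors and receptors it was 0.67 for MYD88, 0.62 for TRADD, 0.43 for NOD1, 0.33 for LTBR and -0.51 for TNFRSF1A. Without RKO DMSO replicate 2 the differences of NOD1 (0.37, adjusted p = 0.0521 by limma) and LTBR (0.30, adjusted p = 0.0536 by limma) missed the threshold, as did LTBR with median-of-ratios scaling (0.22, adjusted p = 0.0721). CXCL3 (-1.10) rose in HCT-116 and was not called in RKO, while CSF1 (0.65) rose in RKO. CXCL3 was tested only through the HCT-116 PAA libraries, where it is high. The CSF1 difference missed the threshold with the sum of isoform values (0.42, adjusted p = 0.203 by limma). For other targets the difference was 0.91 for NINJ1, 0.80 for TRAF1, 0.41 for CD83, -0.51 for SDC4, -0.91 for BCL2A1 and -1.15 for PLAU. TRAF1 was tested only through the RKO PAA libraries, where it is high. The BCL2A1 difference missed the threshold with a pseudocount of 0.1 (-1.33, adjusted p = 0.266 by limma), its FPKM in HCT-116 being 0 to 0.322. ZFP36L1, an mRNA decay factor, differed by 0.53, called lower in HCT-116 and higher in RKO. Of all genes tested, 31.0% differed between the lines by this test.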

How the results depend on the processing

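Depth is unknown beyond a rough estimate, so genes near 1 FPKM (TNFAIP3, BIRC3 and CXCL1 in HCT-116, CXCL8 in vehicle) carry a counting error that could not be given. RKO with DMSO had 2 libraries, and where 1 was left out the remaining library was assumed to vary like the other groups. Calls in ICAM1, CXCL8 and RELB within each line, and in NFKB2 within each line, held under every alternative run. The count of 3 of the 10 genes whose effects differed between lines became 5 with a common total and 5 with median-of-ratios scaling. The common total added NFKBIA (0.61) and TNFAIP3 (0.30), in the direction of RKO. Median-of-ratios scaling added NFKB1 (-0.30) and CXCL8 (-0.58), in the direction of HCT-116. Of all genes tested, 5295 of 13938 and 4272 of 13876 differed under these scalings. Leaving out each library in turn gave 1 to 3 called isoforms of the 10 genes in HCT-116 and 1 to 4 in RKO. With the sum of isoform values the difference between lines reversed for NFKBIZ (-0.17), MYD88 (-1.21) and LTBR (-0.01), none of them past the threshold. CD83 in RKO reversed with a common total (0.22). The cause was not tested.

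Whether same-numbered libraries were paired is not stated in the labels. Deviations of same-numbered DMSO and PAA libraries correlated at 0.0666, -0.134 and -0.134 in HCT-116 and at -0.142 and -0.0764 in RKO. Those of differently numbered libraries correlated at -0.0966 to 0.214 in HCT-116 and at -0.0722 to 0.142 in RKO. Deviations from means of 2 or 3 libraries cannot decide this, so pairing is unknown. With the replicate block, genes whose effects differed between lines numbered 2739 in place of 4307, and isoforms of the 10 genes called numbered 1 in HCT-116 and 0 in RKO. With 3 residual degrees of freedom, the block called 8 of the 10 genes in RKO and 6 in HCT-116. RKO has no DMSO replicate 1, so with the block RKO PAA replicate 1 adds nothing to the RKO effects. RELA, which the block added in RKO, was at 0.66, as without RKO PAA replicate 1. Of the 13881 genes tested the block called 4058 in RKO and 5658 in HCT-116, the latter as 2600 higher and 3058 lower. Differences between lines that missed the threshold with the block were those of RELB (0.65, adjusted p = 0.0636), CYLD (0.46, adjusted p = 0.164), NFKBIZ (0.59, adjusted p = 0.1), NOD1 (0.47, adjusted p = 0.055) and NINJ1 (0.86, adjusted p = 0.102 by limma), and calls among the 17 adhesion, survival and other targets in HCT-116 were 2 higher and 5 lower.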
